A study of Mus musculus with 15 samples.

Results

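S100 proteins, a family of small calcium-binding proteins, were examined as transcripts in mouse liver. The 10 genes were chosen by symbol, as S100a1, S100a4, S100a6, S100a8, S100a9, S100a10, S100a11, S100a13, S100a16 and S100g, from the 24411 genes with counts. Poly(A) RNA of liver tissue had been sequenced in 15 libraries: 5 labelled Yap OE (Yap over expression), 6 labelled LATS KO (loss of LATS) and 4 labelled TdTomato (the wild type controls). The labels give no allele, promoter, Cre line, age or time point for any group, and the text on RNA extraction describes animals of another design, so nothing was taken from it. YAP is a transcriptional coactivator, and the LATS kinases of the Hippo pathway restrain it, so the comparisons ask which S100 transcripts differ from the controls when YAP is raised or when its brake is removed, and whether both states differ from each other.

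An S100 protein is built around a pair of EF-hand calcium-binding loops and mostly works as a dimer that, on binding calcium, exposes a surface for a target protein. Inside cells the targets include annexins, cytoskeletal proteins and enzymes, and some family members are released and act on surface receptors such as RAGE and TLR4. In liver, hepatocytes, bile duct cells, macrophages, neutrophils and matrix-producing cells express different members of the family, which is why single members are used as cell markers.

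The libraries held 6166680 to 28225360 gene counts. LATS KO 3 and TdTomato 1 stood apart, with 89.9% and 78.5% unmapped reads and 9710 and 8501 detected genes, where the remaining 13 libraries had 2.53% to 16.7% and 13372 to 15641. Values that moved most without these 2 libraries are given with and without them. Yap1 reached 146 to 212 CPM in Yap OE, 66 to 86.4 CPM in LATS KO and 94.9 to 115 CPM in TdTomato (CPM, counts scaled to library size with TMM factors). Its log2 fold change was 0.82 ± 0.17 (SE) in Yap OE, which passed the test (adjusted p = 0.00433, edgeR). Lats1 and Lats2 did not pass it in LATS KO (adjusted p = 0.62 and 0.695), and whole-gene counts do not check a deletion of part of a gene. Every test below is edgeR's two-sided quasi-likelihood test in 1 fit of all 15 libraries, adjusted by Benjamini-Hochberg over 13055 genes with a threshold of 0.05. Whether replicates are separate animals is not labelled, so each p-value reflects the spread among the sequenced libraries alone, which may be technical.

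Of the 10 genes, 9 lie on mouse chromosome 3 (mm10). A cluster of 184.7 kb, from 90511034 to 90695721, holds 12 S100 genes, in the order S100a1, S100a13, S100a14, S100a16, S100a3, S100a2, S100a4, S100a5, S100a6, S100a7a, S100a8 and S100a9. S100a11 (93520488 to 93526287, plus strand) and S100a10 (93555080 to 93564643, plus strand) lie 2824.8 kb beyond it and 28.8 kb from each other. S100g stands alone on chromosome X (162961992 to 162964599, minus strand). All 10 are annotated as protein-coding genes, and CPM covers the exons of the whole gene. S100a1 (90514392 down to 90511034, minus strand) and S100a13 (90514435 to 90524581, plus strand) are transcribed away from each other across a gap of 42 bp in the GENCODE M21 annotation. Between the RefSeq starts of the same pair lie 104 bp, shown here because they precede both of these starts (RefSeq, GRCm38.p6, chr3:90514331-90514434, plus strand). By GENCODE M21, S100a1 reaches to 90514392, so the left part of the stretch lies inside that gene. Only the gap of 42 bp precedes both genes in that annotation. Capitals mark the 3 CG dinucleotides of the 104 bp.
S100a1 and S100a13 shared stretch: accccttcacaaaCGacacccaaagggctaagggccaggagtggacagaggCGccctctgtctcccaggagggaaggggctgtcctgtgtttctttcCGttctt

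The 250 bases before the starts of S100a11 and S100a4, the members that were higher than TdTomato in both manipulated groups, are shown next, from RefSeq (GRCm38.p6), S100a11 as chr3:93520246-93520495 and S100a4 as chr3:90603520-90603769, both on the plus strand. Capitals mark matches to the AP-1 motif, written TGACTCA or TGAGTCA and searched on both strands.
S100a11 promoter: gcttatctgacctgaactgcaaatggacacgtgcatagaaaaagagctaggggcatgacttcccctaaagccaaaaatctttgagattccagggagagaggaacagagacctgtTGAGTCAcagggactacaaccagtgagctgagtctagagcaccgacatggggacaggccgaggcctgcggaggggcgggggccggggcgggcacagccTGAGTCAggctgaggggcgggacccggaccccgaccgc
S100a4 promoter: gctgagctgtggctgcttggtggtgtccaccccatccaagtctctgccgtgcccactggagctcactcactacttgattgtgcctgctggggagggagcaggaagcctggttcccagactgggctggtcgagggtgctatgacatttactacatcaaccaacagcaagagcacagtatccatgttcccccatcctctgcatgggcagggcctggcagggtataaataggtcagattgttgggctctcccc
The S100a11 window held 2 such matches, 136 and 38 bases before the start, and the S100a4 window none. Windows of this kind were found for 9 members, not for S100a10, and AP-1 letters were in no other member's window. The TEAD motif GGAATG, searched on both strands, was in no member's window. Among 32851 promoter windows of the same length, 4.46% held the AP-1 letters and 12.6% the TEAD letters. A match describes the letters only.

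Compared with TdTomato, S100a11 and S100a4 were higher in Yap OE, and S100a1 and S100a13 were lower. In LATS KO S100a11 and S100a4 were higher too, and no member was called lower by edgeR. Of the 9 members that could be tested, 2 were called higher and 2 lower in Yap OE, where 17.9% of all tested genes were called higher and 10.8% lower. In LATS KO 2 of 9 were called higher and 0 lower, where 10% of all genes were called higher and 0.973% lower. At an unadjusted p under 0.05 there were 5 members in each of these comparisons. Over all 13055 genes there were 5164 in Yap OE and 3300 in LATS KO. DESeq2 also called 0 members lower in LATS KO, but called 5 higher there: S100a4, S100a6, S100a8, S100a9 and S100a11. Of the 12917 genes it tested, DESeq2 called 2535 higher and 359 lower in LATS KO. The median log2 fold change of the 9 members was 1.65 in Yap OE and 3.21 in LATS KO, against 0.16 and 0.13 over all genes. S100a4, S100a6, S100a8, S100a9 and S100a11 reached the low-count filter only through Yap OE and LATS KO libraries, so these counts and medians do not support a direction for the family. Both comparisons share the 4 TdTomato libraries and are therefore not independent.

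**Figure D1:**
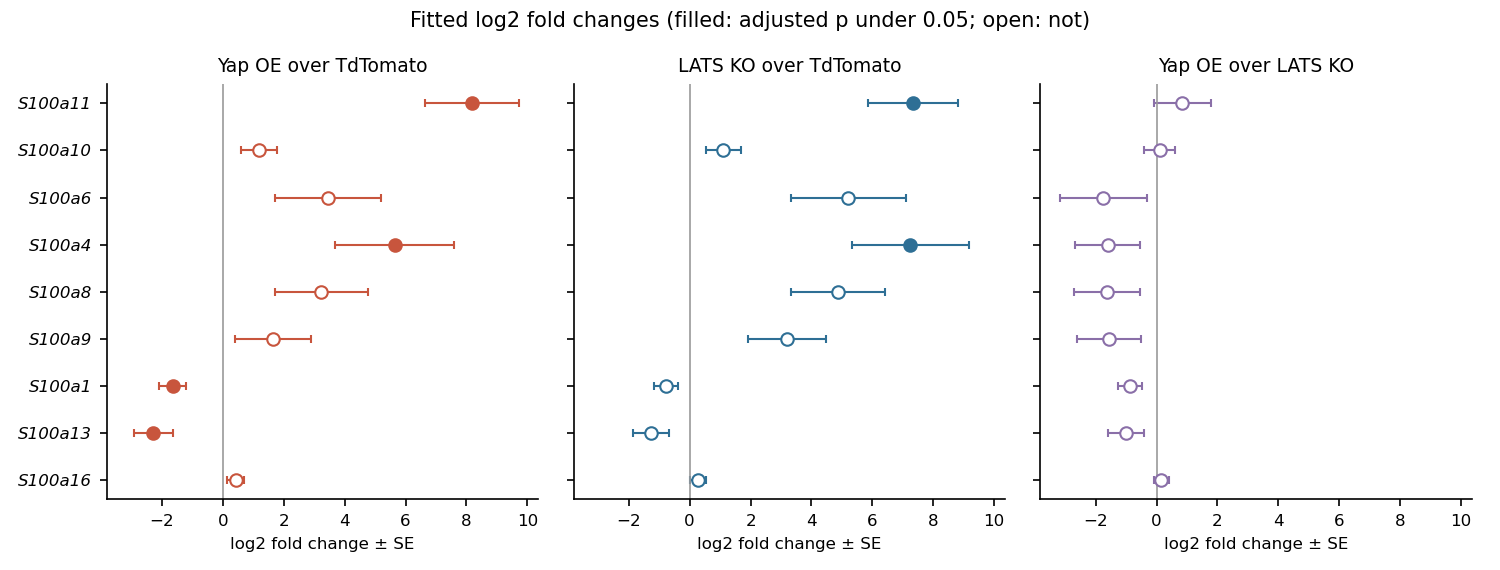
Fitted log2 fold changes (x axis, bars ± SE) of the 9 tested S100 genes (y axis) for Yap OE over TdTomato, LATS KO over TdTomato and Yap OE over LATS KO; filled points passed the adjusted p threshold of 0.05 and open points did not. S100a11 lies at 8.18 and 7.34 in the comparisons with TdTomato, and no point is filled in the third panel.

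S100a11 encodes a partner of annexins A1 and A2 that takes part in membrane repair and in growth control of epithelial cells. It stood at 203, 105, 105, 157 and 266 CPM in Yap OE 1 to 5. In LATS KO 1 to 6 it stood at 159, 242, 147, 6.40, 2.23 and 3.79 CPM, and in TdTomato 1 to 4 at 0, 0.717, 0.635 and 0.862 CPM. Every Yap OE and every LATS KO library was above every TdTomato library, and LATS KO 4, 5 and 6 were far below LATS KO 1, 2 and 3. Groups that did not overlap in this upward direction were seen for 28.3% of all genes in Yap OE and 6.65% in LATS KO. The log2 fold change was 8.18 ± 1.53 (SE) in Yap OE (adjusted p = 0.00292, edgeR) and 7.34 ± 1.47 in LATS KO (adjusted p = 0.00818). Both calls held without each of the 15 libraries in turn. In LATS KO the call was lost in a fit of those 2 groups alone (7.34, adjusted p = 0.0696), a fit that called 1 gene in all. With voom the LATS KO value was far smaller, 2.86 ± 0.91 (adjusted p = 0.028), and the Yap OE value was 7.45 ± 0.79. The group means were 167 ± 68.6 CPM (SD, n = 5) in Yap OE, 93.4 ± 103 CPM (n = 6) in LATS KO and 0.554 ± 0.381 CPM (n = 4) in TdTomato. In bulk tissue, more cells of a type that expresses a gene and more RNA of that gene per cell cannot be told apart.

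S100a10 encodes the light chain that joins annexin A2 in a heterotetramer at the plasma membrane, and its EF hands no longer need calcium. It was abundant in every group, at 255, 139, 115, 189 and 402 CPM in Yap OE 1 to 5. LATS KO 1 to 6 had 270, 163, 555, 53.3, 61.6 and 124 CPM, and TdTomato 1 to 4 had 119, 93.1, 74.9 and 95 CPM. The lowest Yap OE library lay inside the TdTomato range, and LATS KO 4 and 5 lay below it. Its log2 fold changes of 1.2 ± 0.59 in Yap OE (adjusted p = 0.143, edgeR) and 1.10 ± 0.57 in LATS KO (adjusted p = 0.253) did not pass the test. Without LATS KO 3, its highest library, the LATS KO value was 0.49 (adjusted p = 0.552), and without both LATS KO 3 and TdTomato 1 it was 0.61. Although S100a10 is the nearest S100 neighbour of S100a11, its highest library exceeded its lowest 3.49-fold in Yap OE and 10.4-fold in LATS KO, while S100a11 spanned 2.53-fold and 109-fold in the same groups.

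Annexin A2, the shared partner of both proteins, was measured by Anxa2 at 394, 195, 193, 327 and 405 CPM in Yap OE 1 to 5. It was at 270, 482, 619, 20.8, 6.68 and 10.2 CPM in LATS KO 1 to 6 and at 0, 0.662, 0.953 and 0.814 CPM in TdTomato 1 to 4. Thus the same LATS KO libraries were high for Anxa2 and S100a11, and TdTomato 1 had no count of either. Anxa2 rose by 8.93 ± 1.55 on the log2 scale in Yap OE (adjusted p = 0.0022, edgeR) and by 8.56 ± 1.52 in LATS KO (adjusted p = 0.00549), and kept both calls without each library in turn. Like S100a11, it lost the LATS KO call in the fit of those 2 groups alone (8.57, adjusted p = 0.0646, edgeR). That fit called 0 genes higher, so no LATS KO call of a higher gene given below held in it.

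**Figure D2:**
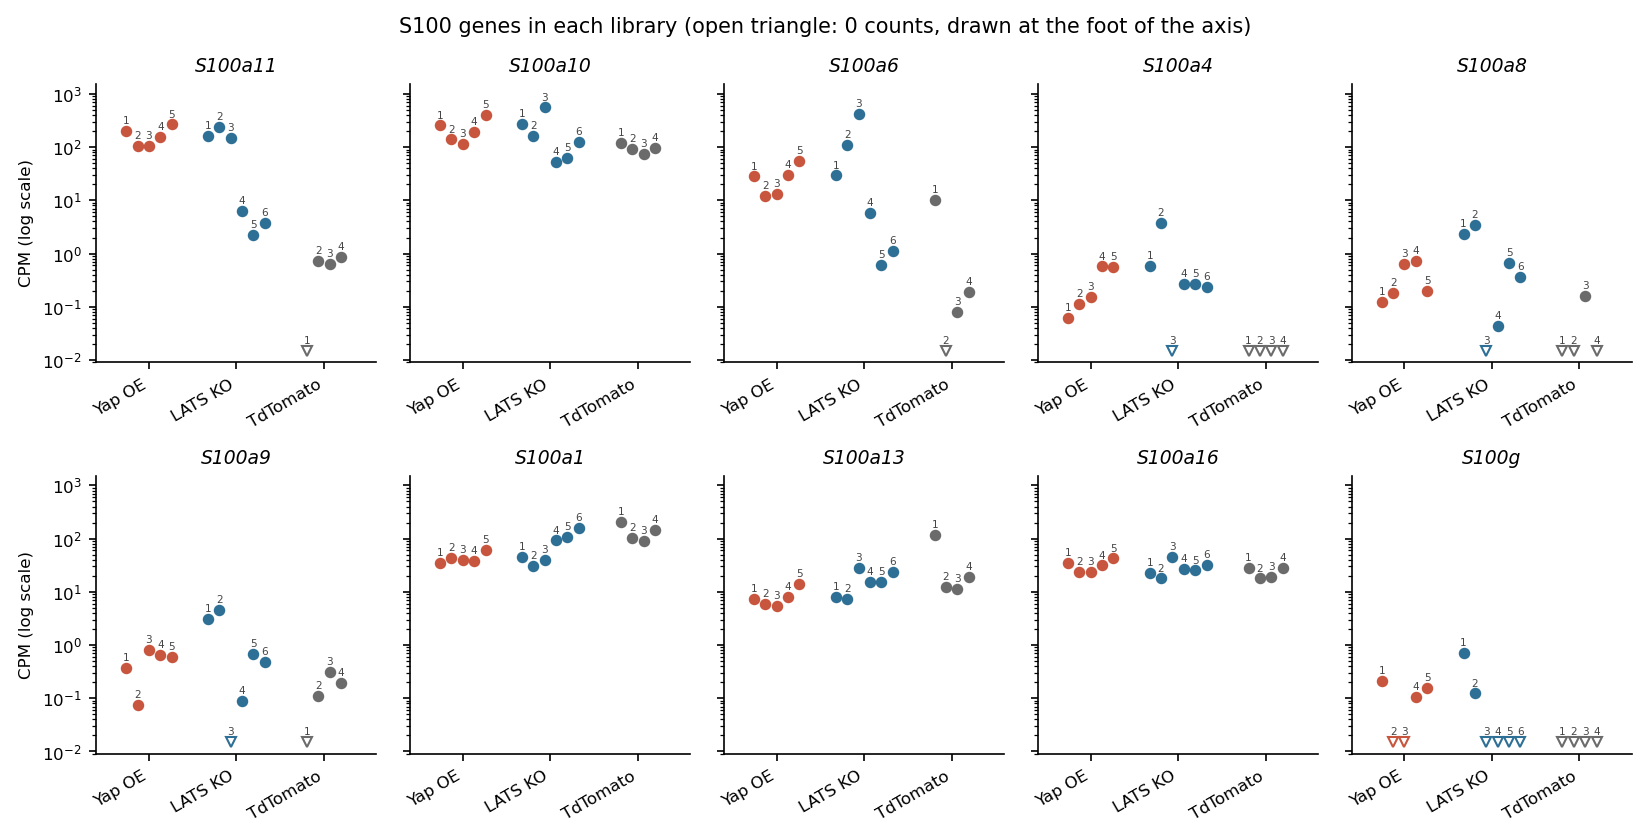
Level of each S100 gene (y axis, CPM on a log scale) in every library of Yap OE, LATS KO and TdTomato (x axis); each point is a library with its replicate number, and open triangles at the foot mark libraries with 0 counts. S100a11 and S100a4 lie higher in Yap OE than in TdTomato, S100a1 lies lower, and LATS KO spans a wide range for S100a11 and S100a6.

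S100a6, or calcyclin, is known from proliferating cells and fibroblasts and binds the ubiquitin ligase component Cacybp. It stood at 28.1, 12.0, 12.9, 30.2 and 55.9 CPM in Yap OE 1 to 5. LATS KO 1 to 6 had 29.3, 110, 415, 5.70, 0.607 and 1.14 CPM, and TdTomato 1 to 4 had 10.1, 0, 0.0794 and 0.192 CPM. All Yap OE libraries were above all TdTomato libraries, while LATS KO overlapped them because TdTomato 1 was higher than LATS KO 4, 5 and 6. With all libraries S100a6 missed the threshold, at 3.46 ± 1.75 in Yap OE (adjusted p = 0.154, edgeR) and 5.21 ± 1.88 in LATS KO (adjusted p = 0.0882). Without TdTomato 1 its log2 fold change was 8.10 in Yap OE (adjusted p = 0.0222) and 9.85 in LATS KO (adjusted p = 0.0295). Without LATS KO 3, the library with 415 CPM, the LATS KO value was 3.54 (adjusted p = 0.182). Without both TdTomato 1 and LATS KO 3 it was 8.10 in Yap OE (adjusted p = 0.00704) and 8.19 in LATS KO (adjusted p = 0.0183). With edgeR, leaving out TdTomato 1 decided whether S100a6 passed, and both mostly unmapped libraries moved its size. With all libraries, DESeq2 called S100a6 higher in LATS KO, and voom called it higher in both comparisons.

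S100a4, a protein of motile cells that binds non-muscle myosin IIA, was scarce throughout. Yap OE 1 to 5 had 0.0616, 0.111, 0.150, 0.572 and 0.549 CPM, from 39 counts in all. LATS KO 1 to 6 had 0.595, 3.78, 0, 0.263, 0.270 and 0.240 CPM, from 148 counts, and TdTomato had 0 counts in all 4 libraries, which allows up to 0.0465 CPM over the group. All 5 Yap OE libraries and 5 of 6 LATS KO libraries held counts, and LATS KO 2 alone held most of those in its group. Counted against that limit of 3 counts over the TdTomato group, S100a4 was at least 6.0-fold higher in Yap OE and at least 27.8-fold higher in LATS KO. It passed the test in Yap OE (adjusted p = 0.0466, edgeR) and in LATS KO (adjusted p = 0.0314). Of 11 fits without 1 library in which it could be tested, it kept the Yap OE call in 1 and the LATS KO call in 7. The Yap OE call was lost without any TdTomato library, without LATS KO 4, 5 or 6 and without Yap OE 1, 2 or 3, with adjusted p up to 0.0929. The LATS KO call was lost without any TdTomato library (adjusted p = 0.0602 to 0.0783), and without LATS KO 2 the bound was at least 6.58-fold. Without both TdTomato 1 and LATS KO 3 the Yap OE call was lost too (adjusted p = 0.0567). The exons of S100a4 overlap those of another annotated gene, Gm42674, on the same strand, and reads in that overlap may not have been counted. Such bounds, and the counting intervals below, cover counting error only.

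S100a8 and S100a9 encode the subunits of calprotectin, the dominant cytosolic protein of neutrophils and a product of inflammatory monocytes. S100a8 was at 0.123, 0.185, 0.636, 0.715 and 0.196 CPM in Yap OE 1 to 5. It was at 2.33, 3.41, 0, 0.0439, 0.674 and 0.361 CPM in LATS KO 1 to 6 and at 0, 0, 0.159 and 0 CPM in TdTomato 1 to 4. LATS KO 1 and 2 were the highest libraries, and LATS KO 3, like 3 TdTomato libraries, held no count.
With 2 counts in TdTomato, the ratio of CPM was 11.8 in Yap OE (95% interval 3.1 to 99.9) and 48.2 in LATS KO (95% interval 13.2 to 402), and 23.7 in LATS KO without LATS KO 2. Both control counts were in TdTomato 3, and without it S100a8 was at least 6.32-fold higher in Yap OE (adjusted p = 0.0652, edgeR) and at least 25.9-fold higher in LATS KO (adjusted p = 0.0612). S100a8 did not pass the test in Yap OE (adjusted p = 0.125, edgeR) or in LATS KO (adjusted p = 0.0547). With DESeq2, and with RLE factors, S100a8 was called higher in LATS KO, and with voom in Yap OE. In LATS KO it passed without LATS KO 3, LATS KO 4 or LATS KO 6 (adjusted p = 0.0236, 0.0379 and 0.0487) and without both TdTomato 1 and LATS KO 3 (adjusted p = 0.0452).

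The levels of S100a9 were 0.369, 0.0741, 0.823, 0.643 and 0.588 CPM in Yap OE 1 to 5, and 3.03, 4.51, 0, 0.0877, 0.674 and 0.481 CPM in LATS KO 1 to 6. TdTomato 1 to 4 had 0, 0.110, 0.318 and 0.192 CPM, and both manipulated groups overlapped them. The log2 fold changes were 1.65 ± 1.24 in Yap OE (adjusted p = 0.356, edgeR) and 3.21 ± 1.28 in LATS KO (adjusted p = 0.122), so neither passed. DESeq2 called S100a9 higher in LATS KO. Among the 36 pairs of tested members, S100a8 and S100a9 had the most similar profiles over the 15 libraries, with a root-mean-square difference of 0.59 on the log2 CPM scale after each was centred on its mean. S100a1 and S100a13 were next, at 0.73, closely followed by S100a10 and S100a16, which are not neighbours, at 0.76. Both S100a8 and S100a9 had 0 counts in LATS KO 3 and TdTomato 1.

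Markers of monocytes and macrophages and of neutrophils were measured beside S100a8 and S100a9. Of 12 monocyte and macrophage markers, the summed level was 364 to 695 CPM in Yap OE, 148 to 1050 CPM in LATS KO and 4.36 to 15.5 CPM in TdTomato, where each marker had a count in at least 1 library. In LATS KO 1 to 6 the sum was 148, 1050, 181, 450, 354 and 175 CPM. Within this group it was thus highest in LATS KO 2 and lowest in LATS KO 1, the libraries where S100a8 and S100a9 were highest. Among the 11 monocyte and macrophage markers tested, 10 were higher in Yap OE and 11 in LATS KO, where 17.9% and 10% of all tested genes were called higher. Markers near 0 in TdTomato, such as Ccr2 at 0 to 0.0794 CPM, reached the low-count filter only through Yap OE and LATS KO libraries. These counts of calls, and those of the neutrophil markers, therefore do not support a direction. The sum of 11 neutrophil markers was 71.4 to 133 CPM in Yap OE, 44.2 to 664 CPM in LATS KO and 7.17 to 260 CPM in TdTomato, most of it from Lcn2, an iron-binding acute-phase protein that hepatocytes also make, and of the 5 tested 1 was higher in Yap OE and 2 in LATS KO. Lcn2 alone was at 654 and 442 CPM in LATS KO 1 and 2, and at 259 CPM in TdTomato 4, where S100a8 had no count. Granule genes were low in all groups, with Camp at most at 0.674 CPM and Elane at most at 1.60 CPM, and Mmp8 was at 0 in all TdTomato libraries. The part of these cells in the S100a8 and S100a9 levels was not tested.

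S100a1, a calcium sensor best known for its control of calcium release and uptake in muscle, was the most abundant member per length in the controls. It was at 34.8, 43.4, 39.5, 38.1 and 60.6 CPM in Yap OE 1 to 5. LATS KO 1 to 6 had 44.5, 31.0, 40.0, 92.1, 108 and 161 CPM, and TdTomato 1 to 4 had 206, 103, 89.3 and 144 CPM. Every Yap OE library was below every TdTomato library, as was the case for 13.4% of all genes, while LATS KO 4, 5 and 6 lay within the control range and LATS KO 1, 2 and 3 below it. S100a1 fell by 1.65 ± 0.43 on the log2 scale in Yap OE (adjusted p = 0.0112, edgeR), with group means of 43.3 ± 10.2 CPM (SD, n = 5) and 136 ± 52.5 CPM (n = 4). The call held without each of the 15 libraries in turn. In LATS KO its log2 fold change of −0.78 ± 0.40 did not pass (adjusted p = 0.251). None of the 9 tested members had all LATS KO libraries below all TdTomato libraries, which was the case for 1.9% of all genes.

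S100a13, which takes part in the release of FGF1 by a route outside the classical secretory pathway, is transcribed from the opposite side of the same short stretch. It was at 7.45, 5.96, 5.42, 8.15 and 13.9 CPM in Yap OE 1 to 5. LATS KO 1 to 6 had 8.12, 7.40, 28.0, 15.5, 15.6 and 23.8 CPM, and TdTomato 1 to 4 had 115, 12.4, 11.4 and 19.1 CPM. TdTomato 1 stood far above the other controls, and Yap OE 5 overlapped the remaining ones. S100a13 was lower in Yap OE by −2.28 ± 0.65 on the log2 scale (adjusted p = 0.0178, edgeR). That call rested on TdTomato 1, since without it the change was −0.81 (adjusted p = 0.176), and without both TdTomato 1 and LATS KO 3 also −0.81 (adjusted p = 0.105). In LATS KO its −1.27 ± 0.60 did not pass (adjusted p = 0.202) and was 0.19 without TdTomato 1. Per 100 counts of S100a1, S100a13 had 13.7 to 22.9 counts in Yap OE. The same ratio was 14.5 to 70.0 in LATS KO, with 70.0 in LATS KO 3, and 12.0 to 56.0 in TdTomato, with 56.0 in TdTomato 1. Both mostly unmapped libraries therefore had the highest S100a13 relative to its neighbour. FGF1 itself was measured by Fgf1, which was lower in Yap OE (−1.61 ± 0.39, adjusted p = 0.00868, edgeR), with 34.1 ± 5.91 CPM (SD, n = 5) against 104 ± 30.9 CPM (n = 4) in TdTomato.

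S100a16, a widely expressed member studied in fat cell differentiation, varied least. It was at 34.3, 23.3, 23.9, 31.3 and 42.3 CPM in Yap OE 1 to 5. LATS KO 1 to 6 had 22.3, 17.8, 44.5, 26.5, 25.2 and 31.8 CPM, and TdTomato 1 to 4 had 27.6, 17.8, 19.2 and 27.5 CPM. The 3 groups overlapped. Its log2 fold changes of 0.43 ± 0.28 in Yap OE (adjusted p = 0.285, edgeR; 95% interval −0.17 to 1.03) and 0.28 ± 0.27 in LATS KO (adjusted p = 0.581; 95% interval −0.30 to 0.86) did not pass. S100a16 lies 8.4 kb from S100a14, which held 1, 5 and 2 counts over Yap OE, LATS KO and TdTomato, so neighbouring family members differed widely in level.

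S100g encodes calbindin-D9k, the vitamin D-dependent calcium carrier of intestinal epithelium, and was almost absent. It had 14 counts over Yap OE, at 0.215, 0, 0, 0.107 and 0.157 CPM in Yap OE 1 to 5, and 17 counts over LATS KO, all in LATS KO 1 (0.703 CPM) and LATS KO 2 (0.123 CPM). TdTomato had 0 counts, which allows up to 0.0465 CPM over the group. The low-count filter removed it, and against that limit it was at least 2.15-fold higher in Yap OE and at least 3.2-fold higher in LATS KO. The bound for Yap OE was 1.4 without Yap OE 1, and for LATS KO it was 0.897 without LATS KO 1. Without a filter it missed the threshold in both (adjusted p = 0.18 and 0.195, edgeR). Over all tested genes, 17.9% were called higher and 10.8% lower in Yap OE, and 10% and 0.973% in LATS KO. Of 10 genes of vitamin D action and calcium transport, 6 were tested. In Yap OE 2 were higher and 4 lower, among them Atp2b1, a calcium pump of the plasma membrane (−0.89 ± 0.20, adjusted p = 0.00612), and Rxra, the dimer partner of the vitamin D receptor (−1.20 ± 0.31, adjusted p = 0.0116). In LATS KO 1 was higher, the sodium-calcium exchanger gene Slc8a1, whose call was lost without TdTomato 2 or TdTomato 4 (adjusted p up to 0.0625) and whose log2 fold change was 4.10 without LATS KO 2, against 4.89 with it.

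Along the main cluster, S100a1 and S100a13 lie at the left end, followed by S100a16, and S100a4, S100a6, S100a8 and S100a9 lie to the right. The positive log2 fold changes of the right-hand members support no pattern along the chromosome, since they reached the low-count filter only through Yap OE and LATS KO libraries. The remaining S100 genes were hardly expressed. Of 7 other S100 genes with an entry, none reached the low-count filter and 2 had no count at all. S100a3 held 23 counts over Yap OE, 11 over LATS KO and 0 over TdTomato, and S100a7a held 29 counts in LATS KO, all from LATS KO 2. Of the 60 other genes inside or within 100 kb of the S100 genes on chromosome 3, 43 had no count in any library and 10 were tested. In Yap OE 3 of these were higher, and in LATS KO 3, the remaining 7 not being called. Of all tested genes, 17.9% and 10% were called higher in these comparisons. Without single libraries, the Yap OE calls of Ilf2 and Sprr1a held in all 15 fits, and that of Crct1 in 5 of 11. The LATS KO calls of Ilf2, Lce6a and Sprr1a held in 4, 3 and 12 of 15 fits. Sprr1a, a cornified envelope protein, was at 1.78 to 7.68 CPM in Yap OE, 0 to 8.11 CPM in LATS KO and 0 to 0.0552 CPM in TdTomato. Its CPM ratio to TdTomato, from 1 control count, was 247 in Yap OE (95% interval 44.1 to 9760) and 204 in LATS KO (95% interval 36.3 to 8070). The ratio was 76.5 in LATS KO without LATS KO 2. Without TdTomato 2 it was at least 59.1 in Yap OE and at least 48.8 in LATS KO, where the call was also lost (adjusted p up to 0.0703 without TdTomato 2, 3 or 4).

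**Figure D3:**
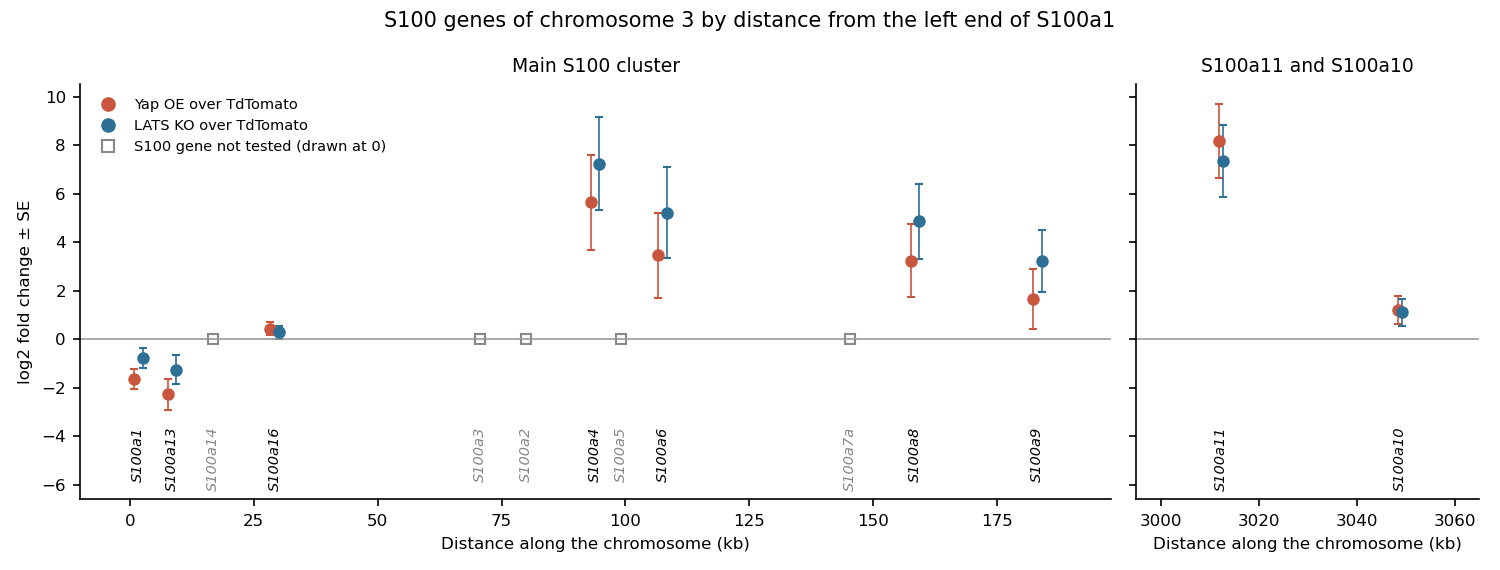
Log2 fold change (y axis, bars ± SE) of the S100 genes of chromosome 3 against distance in kb (x axis) from the left end of S100a1, for Yap OE and LATS KO over TdTomato; the right panel continues the axis beyond a gap, and squares at 0 mark S100 genes that were not tested. S100a1 and S100a13 lie below 0 and S100a11 has the highest values, at 8.18 and 7.34.

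The direct test of Yap OE against LATS KO called 0 of the 9 members with edgeR, where 0.988% of all genes were called, 0.498% higher and 0.49% lower. At an unadjusted p under 0.05 there was 1 member, S100a1 (−0.87 ± 0.39, adjusted p = 0.311), and DESeq2 called none, while voom called S100a6, S100a10 and S100a11 higher and S100a1 and S100a13 lower. Over all 13055 genes, 1910 had an unadjusted p under 0.05, and voom called 3702 higher and 3623 lower. S100a11 had a log2 fold change of 0.84 ± 0.94 (adjusted p = 0.796) with a 95% interval of −1.15 to 2.83. With voom it was 4.59 ± 0.53, outside that interval, and was called higher (adjusted p = 3.67e-06). The 95% intervals were −3.92 to 0.72 for S100a4, −4.77 to 1.27 for S100a6, −3.91 to 0.66 for S100a8 and −3.77 to 0.65 for S100a9. In this fit they reached further down than up, so sizeable lower levels in Yap OE could go undetected with this spread. S100a6 in that test was −1.75 ± 1.42, −0.09 without LATS KO 3 and 2.82 with voom. The interval of S100a10 was −0.99 to 1.2. The groups overlapped for all 9 tested members, while they lay apart for 4.76% of all genes with Yap OE above and for 1.95% with it below.

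To compare members with each other, CPM was divided by transcript length. Summed over the 10 members, the level was 481 to 1330 CPM per kb in Yap OE, 280 to 1800 CPM per kb in LATS KO and 277 to 678 CPM per kb in TdTomato, with all groups overlapping. The make-up of that sum differed more than its size. In Yap OE, S100a11 made up 39.0% to 44.1% of it and S100a10 34.9% to 44.0%, while S100a1 made up 5.70% to 12.3%. In TdTomato, S100a1 made up 44.9% to 52.6%, S100a10 25.6% to 42% and S100a11 at most 0.45%. LATS KO libraries fell to one side or the other: S100a1 made up 7.67%, 4.78% and 3.28% in LATS KO 1, 2 and 3, and 48.6%, 52.8% and 48.4% in LATS KO 4, 5 and 6. In LATS KO 3, which was mostly unmapped, S100a6 reached 31.5%, more than in any other library. S100a4, S100a8, S100a9 and S100g each stayed under 1% of the sum in all 15 libraries.

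**Figure D4:**
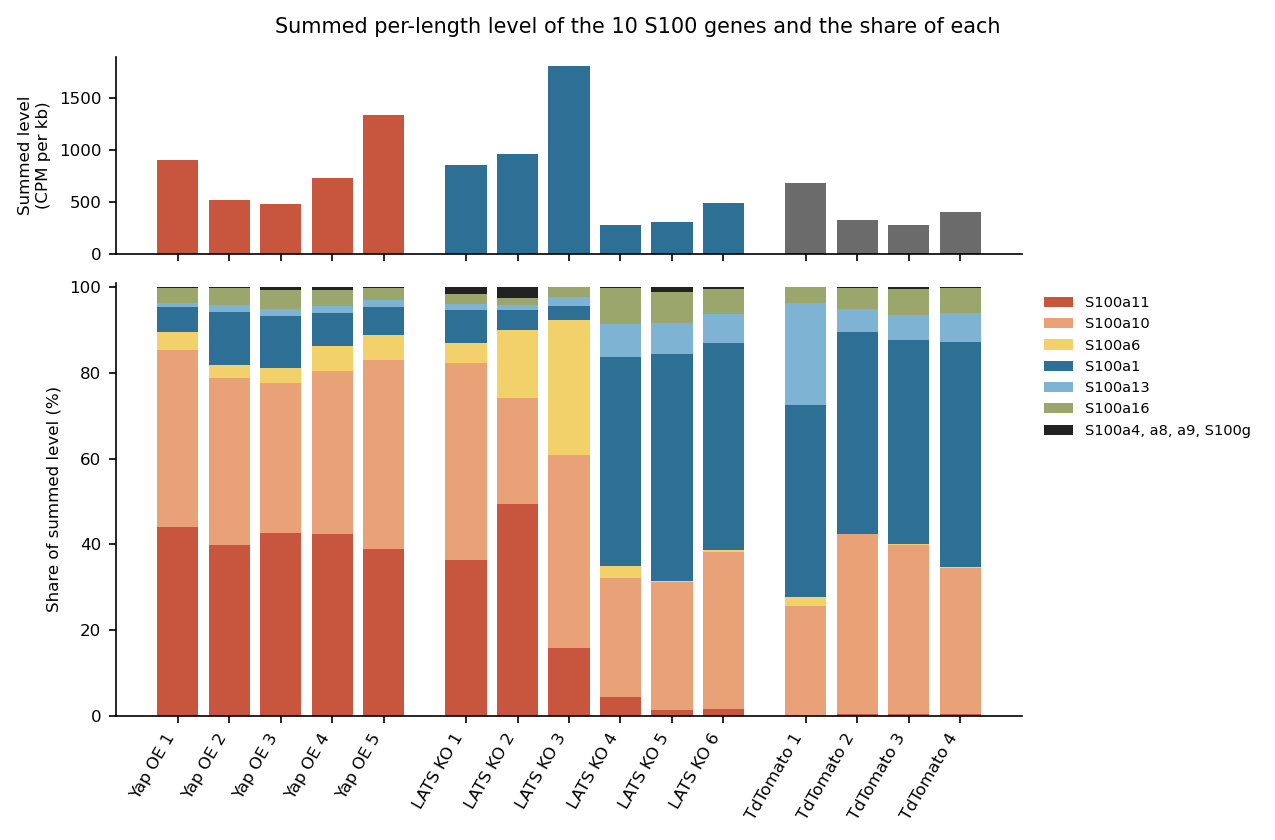
Upper panel, summed level of the 10 S100 genes (y axis, CPM per kb) in each library (x axis); lower panel, share of that sum in percent by gene. S100a11 and S100a10 fill most of each Yap OE bar, S100a1 is the largest part of each TdTomato bar at 44.9% to 52.6%, and in LATS KO 4 to 6 its share is 48.4% to 52.8%.

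The genes most like each member over the 15 libraries were found by the root-mean-square difference of centred log2 CPM. For S100a11 they were Tmsb10, an actin-binding thymosin (0.56), Anxa2 (0.62) and A430105I19Rik (0.65). Tmsb10 was at 118 to 210 CPM in Yap OE, 3.91 to 187 CPM in LATS KO and 0 to 0.575 CPM in TdTomato. For S100a6 they were Adamts5, a matrix protease (1.16), Vim, the intermediate filament vimentin (1.49), and Zfp462 (1.5), which were all further away. Vim was at 678 CPM in LATS KO 3 and 598 CPM in LATS KO 2, the libraries where S100a6 was highest. S100a1 was closest to Etfb, Pyurf and Akr7a5 (0.16 each), of which Etfb belongs to mitochondrial fatty acid oxidation. S100a13 was closest to Ndufa2 (0.21), Ndufa5 (0.29) and Zcrb1 (0.31), the first pair encoding complex I subunits. Like S100a13, Ndufa2 was highest in the mostly unmapped TdTomato 1, at 511 CPM against 60.4 to 157 CPM in the other controls. Zcrb1 was at 163 CPM there, against 20.4 to 42.2 CPM. S100a10 was closest to Faap20 (0.45), Vcpkmt (0.46) and Smyd4 (0.46). S100a16 was close to Cstb (0.19) and Rpl15 (0.19). The scarce members had scarce neighbours: S100a4 was closest to Cysltr1 (0.47), Bst1 (0.54) and Fut4 (0.56). S100a8 was closest to Adam12 (0.71), Cysltr1 (0.76) and Akr1b7 (0.82), and S100a9 to Casz1 (0.84), 1700037C18Rik (0.88) and Vwf (0.90). These distances are descriptions over libraries that share their groups and differ in depth.

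Beyond Anxa2, intracellular binding partners of S100 proteins were examined as a list of 12, all tested. In Yap OE 6 were higher and 1 lower, and in LATS KO 3 were higher and the other 9 were not called. Of all tested genes, 17.9% were called higher and 10.8% lower in Yap OE, and 10% and 0.973% in LATS KO. The median log2 fold change of the 12 partners was 1.28 in Yap OE and 0.95 in LATS KO, against 0.16 and 0.13 over all genes. Partners near 0 in TdTomato, such as Anxa1, reached the low-count filter only through Yap OE and LATS KO libraries. These counts and medians therefore do not support a direction. Anxa1, the annexin bound by S100a11, had 3 counts in TdTomato, and passed in LATS KO (adjusted p = 0.008), and its CPM ratio was 131 in LATS KO (95% interval 44.7 to 638), 69.2 without LATS KO 2 and 283 without TdTomato 2. Ahnak, a giant scaffold bound by the S100a10 and annexin A2 complex, stood at 236, 487, 473, 19.6, 9.31 and 9.97 CPM in LATS KO 1 to 6, against 20.6, 7.67, 5.96 and 9.14 CPM in TdTomato 1 to 4. It passed in LATS KO (4.25 ± 1.11, adjusted p = 0.0238), and the call was lost without TdTomato 2, 3 or 4 (adjusted p up to 0.0772). Cacybp, the partner of S100a6, was at 26.5 to 44.6 CPM in Yap OE, 24.1 to 47.2 CPM in LATS KO and 27.3 to 70.9 CPM in TdTomato, and was not called in either.

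Receptors of secreted S100 proteins and their adaptors formed a list of 10, all tested. In Yap OE 4 were higher and in LATS KO 3, the others not being called. Of all tested genes, 17.9% and 10% were called higher in these comparisons. The median log2 fold change of the receptor list was 0.2 in Yap OE and 0.28 in LATS KO, near the 0.16 and 0.13 over all genes. Cd36, a scavenger receptor that binds calprotectin loaded with fatty acid, was at 208 to 401 CPM in Yap OE, 63.2 to 430 CPM in LATS KO and 7.09 to 13.4 CPM in TdTomato, with no overlap. It rose by 4.94 ± 0.63 in Yap OE (adjusted p = 0.000559, edgeR) and by 4.61 ± 0.61 in LATS KO (adjusted p = 0.00271). Ager, which encodes RAGE, was at 3.57, 2.78, 2.39, 4.43 and 2.47 CPM in Yap OE 1 to 5. It was at 1.24, 3.65, 11.6, 0.570, 0.202 and 0.240 CPM in LATS KO 1 to 6, and had 1 count in TdTomato. Ager thus reached the low-count filter only through Yap OE and LATS KO libraries. It passed in both (adjusted p = 0.00549 and 0.0118), with ratios of 204 (95% interval 36.4 to 8080) and 150 (95% interval 26.7 to 5950). Without TdTomato 3 these were at least 54.8 and at least 40.3, and the LATS KO ratio was 99.2 without LATS KO 3. Cd14, the co-receptor of TLR4, rose by 4.21 ± 1.29 in Yap OE (adjusted p = 0.0244) and 4.65 ± 1.30 in LATS KO (adjusted p = 0.0322). The Yap OE call was lost without TdTomato 2 or 3 and the LATS KO call without any TdTomato library or LATS KO 1 or 2 (adjusted p up to 0.0674 and 0.0985), and without TdTomato 4 the values were 5.37 and 5.80.

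Of 22 other EF-hand sensors and buffers, 18 were tested. In Yap OE 6 were higher and 1 lower, and in LATS KO 3 were higher and 15 not called. The median log2 fold change of the 18 was 0.32 in both, against 0.16 and 0.13 over all genes. Of all tested genes, 17.9% were called higher and 10.8% lower in Yap OE, and 10% and 0.973% in LATS KO. Rcn1, a reticulocalbin of the secretory pathway, rose by 4.56 ± 0.75 in Yap OE (adjusted p = 0.0017, edgeR) and by 3.88 ± 0.71 in LATS KO (adjusted p = 0.00623). Its paralog Rcn2 rose by 1.84 ± 0.33 (adjusted p = 0.00231) and 1.31 ± 0.31 (adjusted p = 0.016), the LATS KO call being lost without TdTomato 3 (adjusted p = 0.0546).

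Marker lists of other cell types differed in how they varied over the libraries. For their counts of calls, the shares over all tested genes were 17.9% higher and 10.8% lower in Yap OE, and 10% and 0.973% in LATS KO. Markers at or near 0 in TdTomato, such as Col1a1 and Acta2, reached the low-count filter only through Yap OE or LATS KO libraries. Such markers could hardly be called lower, so the counts of higher calls do not support a direction. The sum of 10 cholangiocyte markers was 3830 to 6310 CPM in Yap OE, 109 to 4450 CPM in LATS KO and 45.2 to 61.6 CPM in TdTomato, where Cftr was at 0. Spp1 alone had group means of 4610, 1270 and 27.8 CPM in the same order. By these means Spp1 made up most of the sum in Yap OE and LATS KO. Of the 8 cholangiocyte markers tested, 7 were higher in Yap OE and 5 in LATS KO. The sum of 11 stellate cell and fibroblast markers was 28.8 to 188 CPM in Yap OE, 0 to 22.9 CPM in LATS KO and 0.0775 to 11.4 CPM in TdTomato, with Col1a1 and Acta2 at 0 in TdTomato, and of the 11 tested 10 were higher in Yap OE and 4 in LATS KO. In LATS KO 3, the library with 89.9% unmapped reads, none of these 11 had a count, and 3 counts there correspond to 0.333 CPM. S100a6 and Vim were highest in that library. Endothelial markers summed to 145 to 239 CPM in Yap OE, 30.4 to 368 CPM in LATS KO and 31.7 to 65.2 CPM in TdTomato. Within LATS KO this sum was 122, 152 and 30.4 CPM in LATS KO 1, 2 and 3, where S100a11 was high, and 368, 310 and 233 CPM in LATS KO 4, 5 and 6, where S100a11 was low. In the mostly unmapped LATS KO 3, only 3 of the 10 endothelial markers had a count. Of the 10 endothelial markers tested, 4 were higher in Yap OE and 3 in LATS KO. Hepatocyte markers summed to 104000 to 169000 CPM in Yap OE, 71500 to 198000 CPM in LATS KO and 117000 to 201000 CPM in TdTomato, and of the 9 tested 4 were lower in Yap OE and 1 in LATS KO. T and NK cell markers summed to at most 2.70 CPM and B cell markers to at most 0.920 CPM in any library. Exocrine pancreas markers, a check for tissue taken along, summed to 2.92 to 4.82 CPM in Yap OE, 1.68 to 28.4 CPM in LATS KO and 24.3 to 47.4 CPM in TdTomato, where Cpa1, Ctrb1, Pnlip and Amy2b were at 0. Cela1 made up most of the TdTomato sum, at 45.3, 30.5, 23.9 and 32.7 CPM in TdTomato 1 to 4. It was called lower in Yap OE (−3.45 ± 0.98, adjusted p = 0.0176, edgeR). The part of these cell types in the S100 levels was not tested.

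**Figure D5:**
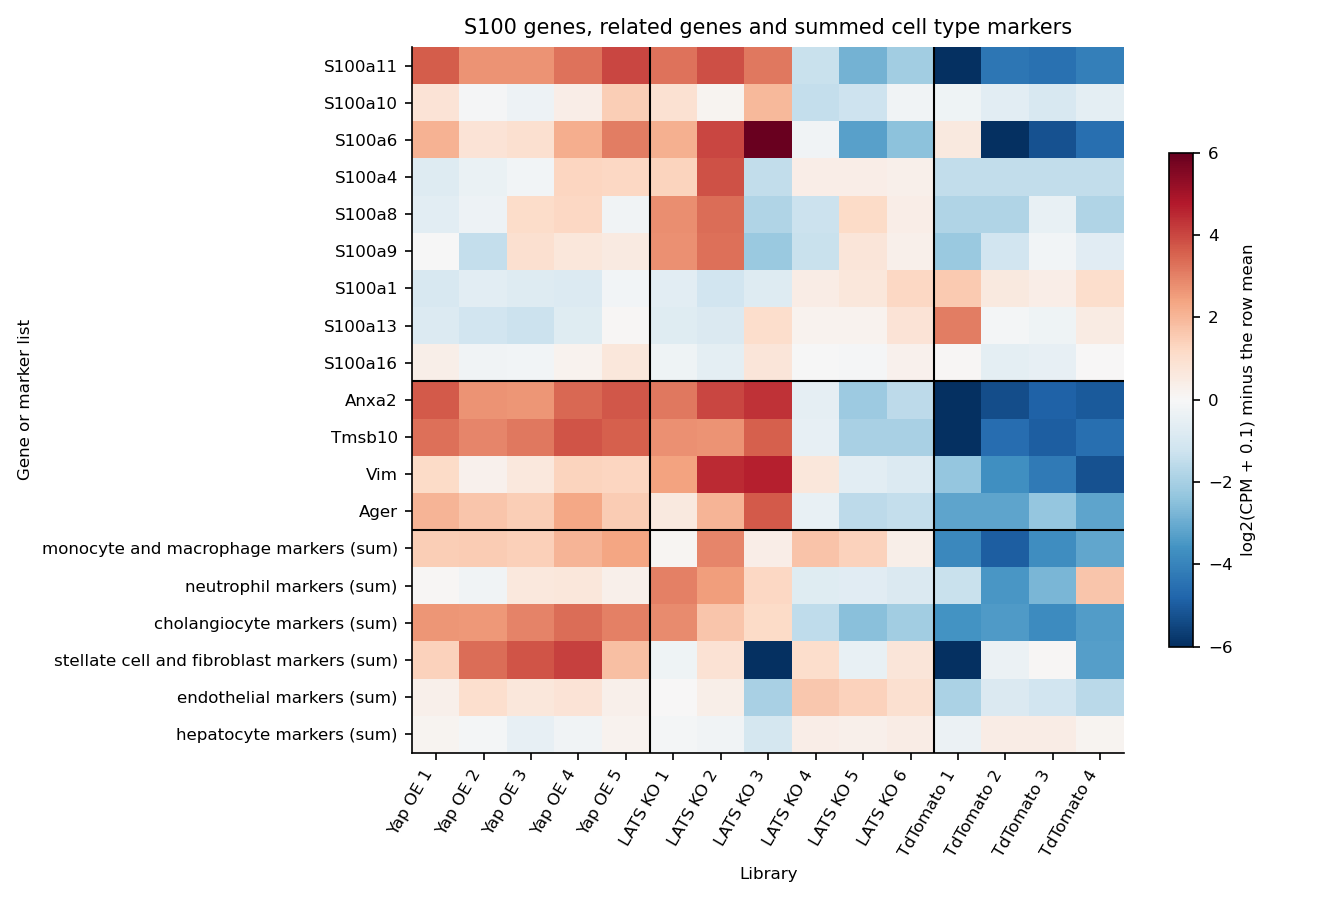
Level of the 9 tested S100 genes, of 4 related genes and of summed marker lists (rows) in each library (columns), as log2(CPM + 0.1) minus the row mean, with red above and blue below it and colours capped at 6. S100a11, Anxa2 and Tmsb10 share their pattern over the libraries, and the cholangiocyte sum, mostly from Spp1, is high in the same libraries, from 3830 to 6310 CPM in Yap OE.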

How the data were processed

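RNA of 15 mouse liver libraries was grouped by the labels into Yap OE (5), LATS KO (6) and TdTomato (4). The authors deposited raw counts per gene in the STAR layout, with columns without strand and for each strand, and the submitters' processing notes name mm10 and the tools STAR, Trimmomatic and FastQC; versions and the annotation used for counting are not given in the sources used here. The reverse-strand column was used, since the forward column held 0.966% to 1.99% of strand-assigned counts. Lines that name no gene held 14.2% to 92.5% of reads and were left out. Reads that map to several places were not counted.

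From the deposited counts, edgeR 4.0.16 (R 4.3.3, limma 3.58.1, DESeq2 1.42.0) gave TMM-scaled CPM, and default filterByExpr left 13055 genes for estimateDisp, robust glmQLFit and glmQLFTest in 1 fit with the group as the only term. SE is the log2 fold change divided by the square root of F. The procedure was tested on simulated data. Log2 CPM used a prior count of 2. Transcript lengths and coordinates came from GENCODE M21 (GRCm38, also called mm10) and promoters from RefSeq. Alternatives were RLE factors, DESeq2, voom with quality weights, no or a stricter filter (CPM of at least 1 in at least 4 libraries), the unstranded column, the 2 groups alone, a replicate block, and leaving out libraries. A limit for 0 counts is 3 counts over the group, and intervals are 95% exact binomial. No pair of replicates agreed within sampling noise.

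The members and lists were chosen with earlier results of these data known. Members are named in every comparison, at most 3 genes of each list (smallest adjusted p) and the 3 genes nearest to each member; Cacybp, Lcn2, Camp, Elane, Mmp8, S100a3, S100a7a and S100a14 were named after their values were seen. A few single genes that these rules or lists would name are not reported here.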

Additional observations from a re-analysis of the deposited data

Results flagged for a closer look

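Of 27 combinations of a member and a group, 2 had a library far from the others. For values well above the floor, chance alone gives such a gap in about 1 of 20. That rate does not hold for these 2, which lie in controls with few counts. S100a8 in TdTomato had its highest value, 0.159 CPM from 2 counts, in TdTomato 3, while the other 3 libraries were at 0. With those at 0, any count in TdTomato 3 would have been flagged. S100a11 in TdTomato had its lowest value, 0 CPM, in TdTomato 1, the mostly unmapped control, where 3 counts correspond to 0.232 CPM, against 0.635 to 0.862 CPM in TdTomato 2 to 4.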

How the results depend on the processing

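Calls of S100 genes in Yap OE against TdTomato kept their direction in all 205 recomputed values, with 184 on the same side of the threshold, 14 no longer called and 7 newly called. In LATS KO against TdTomato 185 of 205 kept both, 5 were no longer called, 12 newly called and 3 turned round, and in Yap OE against LATS KO 196 of 207 did, with 4 newly called and 7 turned round. The cause of these changes was not tested. RLE factors moved the median log2 fold change of all genes to 0.34 in Yap OE, from 0.16 with TMM, and no member changed direction. Members called higher in Yap OE were 2, but 6 with voom and 1 with the stricter filter; those called lower were 1 without both TdTomato 1 and LATS KO 3. Leaving out 1 library gave 1 to 2 higher and 1 to 2 lower. In LATS KO 5 were called higher with DESeq2, 1 with the stricter filter, 4 without both libraries and 0 in the 2 groups alone, and 1 to 3 without single libraries. Voom called 3 members higher and 2 lower in Yap OE against LATS KO.

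Over all genes, 3744 were called in Yap OE, against 8872 with voom and 6416 without both libraries (2585 to 4973 without single libraries). In LATS KO 1438 were called, against 2894 with DESeq2, 3504 with voom, 2245 without both libraries and 1 in the 2 groups alone, where 2013 had an unadjusted p under 0.05 (588 to 1798 without single libraries). In Yap OE against LATS KO 129 were called, against 779 with DESeq2, 7325 with voom and 1688 without both libraries (36 to 389 without single libraries). Log2 fold changes that turned round were, with voom, −0.31 (S100a10) and 0.26 (S100a13) in LATS KO, and 2.82 (S100a6) and 0.31 (S100a8) in Yap OE against LATS KO. In LATS KO S100a13 lay between −1.58 and 0.19 without single libraries, the highest without TdTomato 1. S100a10 in Yap OE against LATS KO lay between −0.22 and 0.71 without single libraries.

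No label pairs the samples by replicate number. Correlations of same-numbered libraries were −0.25 to 0.23, but differently numbered ones were not set beside them, so this check cannot decide on pairing. With the replicate number as a block, over replicates 1 to 4 only, 2038 genes were called in Yap OE, 627 in LATS KO and 0 in Yap OE against LATS KO (630 at an unadjusted p under 0.05). With this block 1 member was called higher and 1 lower in each comparison with TdTomato, S100a13 in Yap OE was −2.02 (adjusted p = 0.11, edgeR), S100a1 in LATS KO −1.43 (adjusted p = 0.049), and S100a10 in Yap OE against LATS KO −0.37. Depth limits S100a4, S100a8, S100a9 and S100g, with 302 counts or fewer over the series.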
